A study of Mus musculus with 13 samples.

Results

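The regions of open chromatin that set the proximal forelimb apart from the forebrain were described in mouse embryos at E12.5, together with the regions that both tissues had open. ATAC-seq, in which the Tn5 transposase cuts DNA where chromatin is accessible, had been run on 50000 cells per library. For proximal forelimb (PFL) and forebrain (FB) there were 2 wild type (wt) libraries and 2 libraries of the II1TDOM 542 mutant (542) each, so 8 of the 13 samples of the series entered the comparison. Per the study's methods, each replicate was a separate pool of tissue from several embryos, so p-values measure the spread between pools and not between single embryos. A consensus of the 50000 strongest regions of each of the 8 libraries held 98378 regions, and a region counted as tissue-specific when it was in all 4 libraries of a tissue and in none of the other.

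All groups were of strain B6CBAF1 and came from crosses between heterozygous adults, with no treatment. The 542 embryos were homozygous for an extra copy of II1, an enhancer of the HoxD locus, inserted with a reporter into the neighbouring T-DOM regulatory domain. Wt and 542 embryos differ there by design, so chromosome 2 was used only below 75 Mb, ahead of the insertion, and the genotype served as a check and not as a comparison. Forelimb and forebrain were dissected as whole pieces, so each library mixes several cell types. A region that is weaker because fewer cells of a type were present cannot be told apart from a region that is less open in each cell.

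Limb bud cells are mostly mesenchyme of the lateral plate that gives rise to cartilage, tendon and connective tissue, joined by muscle precursors that migrate in from the somites. The forebrain at this stage holds dividing neural progenitors and young neurons of the dorsal pallium and the ventral subpallium. Promoters of many genes are open in most tissues, while enhancers far from the start of a gene are often open in only some of them. Enhancers carry short DNA motifs that transcription factors bind, and homeodomain, POU and SOX factors are known for their roles in neural tissue, while posterior HOX, TEAD, T-box and TWIST factors are known from limb mesenchyme.

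The tissue-specific regions numbered 10666 in PFL (10.8% of the consensus) and 11871 in FB (12.1%), and 20196 regions (20.5%) were shared by all 8 libraries. The remaining 55645 regions (56.6%) were in some libraries of a tissue and not in others. Presence in the libraries chose these classes, so their sizes are a description with no test. The fold is the authors' ratio of the tag pileup at the summit to the local background, with a constant (pseudocount) added to each. At the lower limit of each list, the last region kept had a fold between 3.23 and 4.52 in the PFL libraries and between 4.36 and 4.79 in the FB libraries. The first region left out had a fold of 3.66 to 4.52 in PFL and 4.36 to 4.79 in FB, so regions on either side of this limit differ little. The lists were ranked first by q value, so these folds are not cut-offs. The lowest fold of any region kept was 1.76 to 1.85 in the PFL libraries and 1.80 to 1.88 in the FB libraries.

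To show the DNA behind the classes, 200 bp around the summit are printed for the 3 strongest specific regions of each tissue and for the strongest specific region of each tissue next to Robo1, the gene with the most specific regions in both tissues. Sequences are the plus strand of the RefSeq genome, build mm10 (GRCm38), 5′ to 3′, and capitals mark matches on either strand to the short motifs described further on, to CAGCTG, an E-box of myogenic factors (in 21.6% of the windows of all consensus regions), and to TTGGCA, a nuclear factor I core (13.5%). The CTCF core CCCTC (48.1%) was searched as well and is not capitalised. The 4 PFL-specific windows came from chr9:31118626-31118825 near St14, chr4:152799533-152799732 near Nphp4, chr10:27063725-27063924 near Arhgap18 and chr16:73344046-73344245 near Robo1.
St14: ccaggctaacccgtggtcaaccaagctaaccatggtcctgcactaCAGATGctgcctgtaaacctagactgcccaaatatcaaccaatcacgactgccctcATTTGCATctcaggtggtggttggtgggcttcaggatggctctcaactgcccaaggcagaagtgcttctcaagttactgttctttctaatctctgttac
Nphp4: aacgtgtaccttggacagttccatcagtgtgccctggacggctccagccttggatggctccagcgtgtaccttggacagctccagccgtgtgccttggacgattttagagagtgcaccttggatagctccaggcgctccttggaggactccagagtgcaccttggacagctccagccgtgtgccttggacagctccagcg
Arhgap18: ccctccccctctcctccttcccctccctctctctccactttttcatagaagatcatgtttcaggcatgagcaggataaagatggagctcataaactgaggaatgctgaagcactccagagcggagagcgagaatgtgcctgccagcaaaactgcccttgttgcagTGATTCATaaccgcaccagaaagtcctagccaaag
Robo1: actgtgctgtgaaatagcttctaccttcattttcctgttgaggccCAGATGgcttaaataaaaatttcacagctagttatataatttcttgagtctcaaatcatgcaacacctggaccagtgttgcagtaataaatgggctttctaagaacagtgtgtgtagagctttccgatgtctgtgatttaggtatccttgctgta
The 4 FB-specific windows came from chr3:47668957-47669156 near Pabpc4l, chr15:24567094-24567293 near Basp1, chr10:19310119-19310318 near Olig3 and chr16:71997989-71998188 near Robo1.
Pabpc4l: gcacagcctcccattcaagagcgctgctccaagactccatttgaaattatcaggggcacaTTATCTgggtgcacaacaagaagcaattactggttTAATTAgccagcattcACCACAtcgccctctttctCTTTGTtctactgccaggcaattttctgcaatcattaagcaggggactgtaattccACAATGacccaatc
Basp1: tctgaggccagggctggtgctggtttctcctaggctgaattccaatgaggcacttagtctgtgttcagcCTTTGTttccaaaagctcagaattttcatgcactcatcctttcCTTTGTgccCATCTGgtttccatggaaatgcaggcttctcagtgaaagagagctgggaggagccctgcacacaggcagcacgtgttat
Olig3: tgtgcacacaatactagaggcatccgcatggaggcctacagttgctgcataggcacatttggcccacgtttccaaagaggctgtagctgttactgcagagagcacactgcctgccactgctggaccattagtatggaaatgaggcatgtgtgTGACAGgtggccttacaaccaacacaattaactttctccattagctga
Robo1: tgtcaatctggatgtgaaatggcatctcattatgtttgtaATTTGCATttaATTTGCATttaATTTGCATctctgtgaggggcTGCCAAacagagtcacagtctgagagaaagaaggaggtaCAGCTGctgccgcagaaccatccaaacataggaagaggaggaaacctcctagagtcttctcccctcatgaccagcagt
The FB-specific Robo1 window held the octamer ATGCAAAT of POU factors 3 times in a row, written there as its reverse complement, at 59, 48 and 37 bases before the summit (offsets -59, -48 and -37). The Pabpc4l window held the homeodomain core TAATTA 4 bases before the summit (offset -4), and ACAAAG and ACAATG, which SOX factors recognise, at 31 and 87 bases after it. The St14 window, although PFL-specific, held an octamer 2 bases after the summit, and the Nphp4 window held none of the motifs. A match in these windows is a description of the letters and not of a bound factor.

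The libraries of a tissue resembled each other far more than those of the other tissue. The Jaccard index, the base pairs shared by a pair of libraries divided by those covered by either, was 0.620 on average over the 6 PFL pairs (range 0.585 to 0.679) and 0.700 over the 6 FB pairs (0.684 to 0.720). Over the 16 pairs of a PFL with an FB library it was 0.338 (0.327 to 0.346), so that no pair of unlike tissues came near a pair of like tissue. The mean index of pairs of like tissue exceeded that of unlike tissue by 0.322 (two-sided exact permutation test over 35 divisions of the 8 libraries, p = 0.0286, the smallest these divisions can give). Among PFL pairs the index was 0.679 between the wt libraries, 0.639 between the 542 libraries and 0.585 to 0.616 between genotypes. The matrix of pairwise overlaps shows the same blocks.

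**Figure D1:**
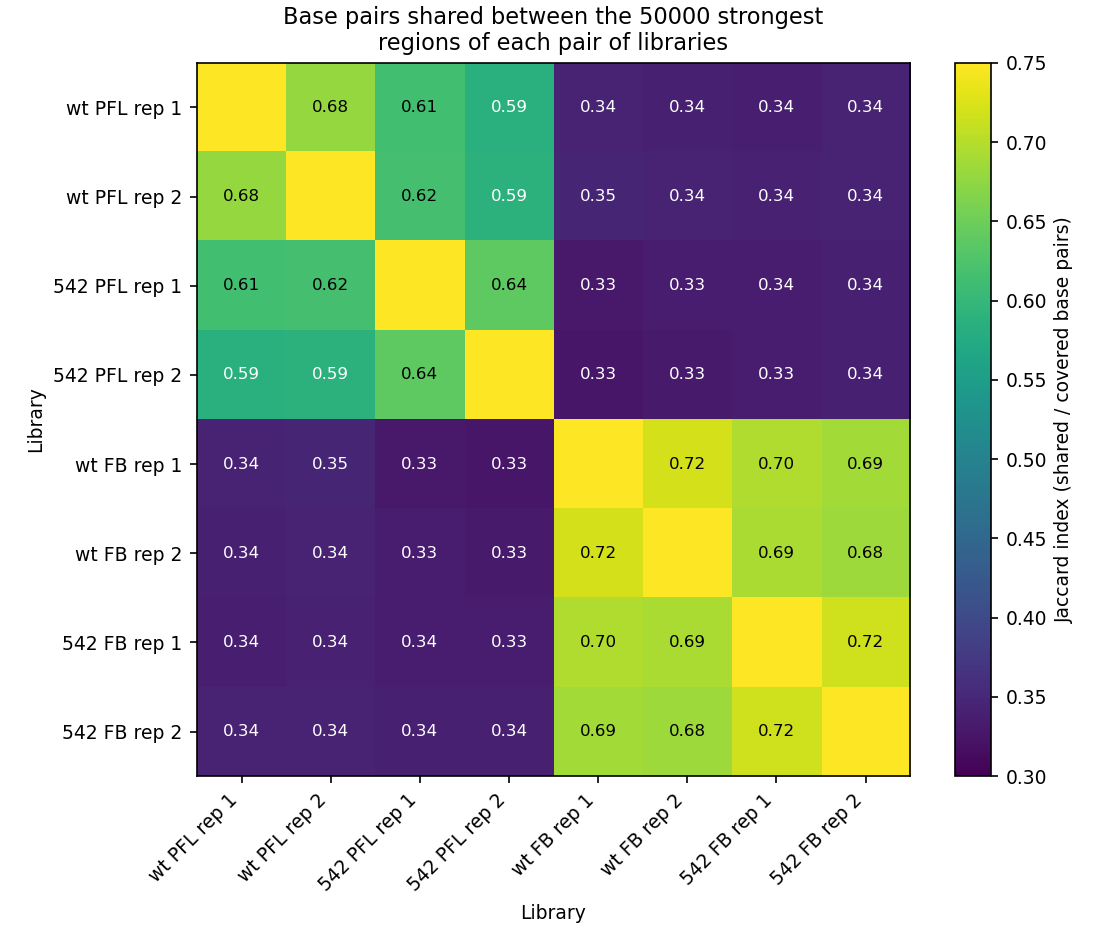
Jaccard index (base pairs shared divided by base pairs covered) for each pair of the 8 libraries, both axes listing the libraries and colour giving the index, with identical lists on the diagonal left unlabelled and beyond the colour scale. Pairs of like tissue lie between 0.585 and 0.720 and pairs of unlike tissue between 0.327 and 0.346.

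The labelled tissues were checked against defining markers, and several limb and brain regulators had an open promoter in both. The promoter, taken as 1000 bp on either side of a start, was open among the strongest regions of all 4 PFL and all 4 FB libraries for Prrx1 and Twist1 (limb mesenchyme) and for Emx2, Lhx2 and Sox2 (forebrain). Lmx1b, the dorsal limb factor, was open in 4 PFL and 1 FB library, Emx1 of the dorsal forebrain in 1 PFL and 4 FB libraries, and Dlx2 of the ventral forebrain in 1 PFL and 4 FB libraries. Tbx5, the forelimb T-box gene, had no promoter region among the strongest regions of any library, and Dlx1 had one in 2 FB libraries. Meis1, a proximal limb factor, was open in 3 PFL and 4 FB libraries, and Sox1 of neural progenitors in 2 PFL and 4 FB libraries. Tissue-specific regions followed the label for some markers and not for others. Tbx5 was nearest to 3 PFL-specific and 0 FB-specific regions, at 32.4 to 110 kb, whereas Emx1 was nearest to 0 PFL-specific and 3 FB-specific regions. Lmx1b, a limb marker, was nearest to 1 PFL-specific and 3 FB-specific regions.

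Tissue-specific regions lay away from gene starts, and shared regions lay at them. Of the PFL-specific regions 2.48% were at a promoter, as were 1.83% of the FB-specific ones, against 53.1% of the shared regions and 13.7% of the whole consensus. Introns held 41.9% of PFL-specific and 43.9% of FB-specific regions, and 54.4% and 52.8% were intergenic. Outside promoters, the median distance from a summit to the nearest protein-coding start was 78.1 kb for PFL-specific, 92.6 kb for FB-specific and 33.0 kb for shared regions. FB-specific regions reached further, with 1207 regions (10.2%) more than 500 kb from any protein-coding start against 679 (6.37%) of the PFL-specific ones.

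**Figure D2:**
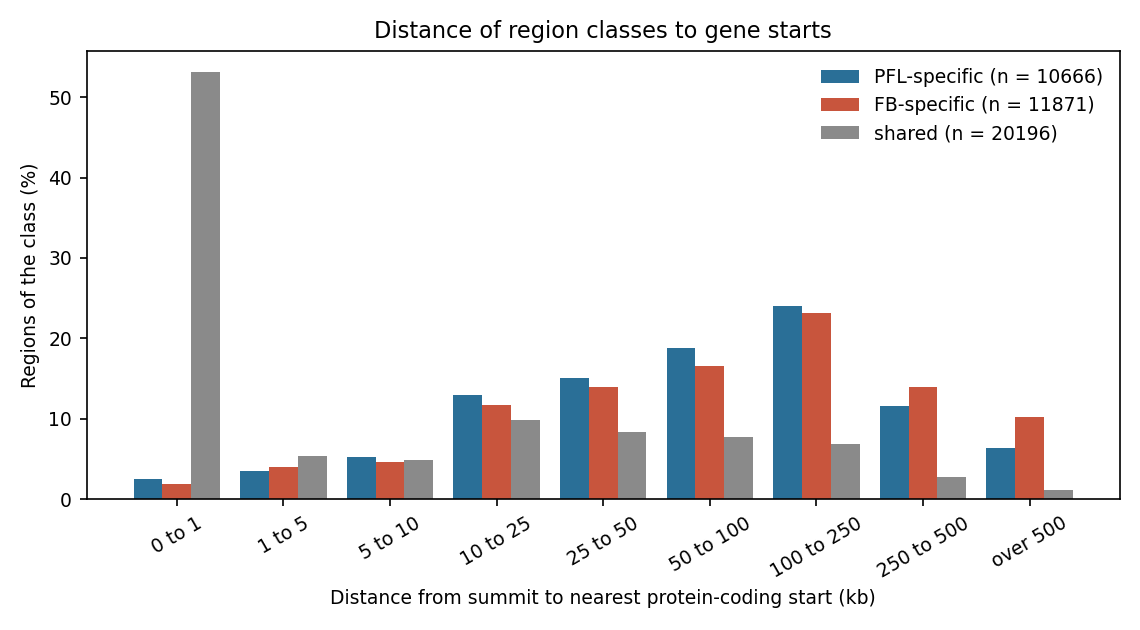
Share of each class of regions (percent, vertical axis) by distance from the summit to the nearest protein-coding start (kb, horizontal axis), for PFL-specific, FB-specific and shared regions. Shared regions peak within 1 kb (53.1%), whereas both tissue-specific classes peak between 100 and 250 kb (24.0% and 23.1%).

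Taken library by library, the lists of the 2 tissues had nearly the same layout. The share of the strongest regions at promoters was 24.95% ± 0.10 (SD, n = 4) in PFL and 24.49% ± 0.17 (SD, n = 4) in FB, with no overlap between the tissues, a difference of 0.467 percentage points (two-sided exact permutation test over 70 assignments, p = 0.0286, the smallest possible). Promoters of 11338 ± 114 protein-coding genes were open in PFL and of 11158 ± 39 in FB (n = 4 each, exact permutation p = 0.0286). The median distance of the other regions was 54.9 kb ± 1.4 in PFL and 55.2 kb ± 2.2 in FB (SD, n = 4, exact permutation p = 0.886), so the tissues overlapped. The promoter difference was 0.845 points among the 20000 strongest regions (p = 0.114) and 0.463 points among all deposited regions (p = 0.629, exact permutation, n = 4 each), so its direction held and it no longer passed the test. Among all deposited regions the median distance was shorter in PFL than in FB (difference -5.56 kb, exact permutation p = 0.0286, n = 4 each).

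The strongest PFL-specific regions were near genes with diverse functions, and several had weak counterparts in the forebrain. At St14, which encodes an epithelial serine protease, an intronic region (chr9:31118304-31118979) 13.1 kb from the start had folds of 16.4 and 17.95 in wt and 18.6 and 20.3 in 542, a mean of 18.3 ± 1.64 (SD, n = 4). An intergenic region 315 kb from Nphp4, a gene of the primary cilium, had folds of 19.5 and 19.1 in wt and 18.4 and 15.4 in 542. Folds of 19.7 and 16.4 in wt and 18.9 and 15.3 in 542 were measured in an intron 291 kb from Arhgap18, which encodes a GTPase-activating protein. All of these values lie well above the folds of the last regions kept in the lists, and neither genotype was higher at all 3 regions.

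The other PFL-specific regions among the 8 strongest were the promoter of Fgf23, a phosphate-regulating hormone (17.5 ± 1.78), and regions near Rnf11 (17.2 ± 1.29), Faiml (16.9 ± 2.08), Adgrl3 (16.8 ± 0.39) and Vwa8 (16.4 ± 1.24, mean fold ± SD, n = 4). Fgf23 was the only promoter among the 16 regions named for the 2 tissues. When the whole deposited list was searched and not only its 50000 strongest regions, the St14, Fgf23 and Faiml regions were called in 3 FB libraries, the Nphp4 region in 4 and the Arhgap18 region in 2, while those near Rnf11, Adgrl3 and Vwa8 were called in 0. Tissue-specific therefore means strong in PFL and not among the strong regions of FB, and not closed in FB.

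The strongest FB-specific regions lay far from any protein-coding start and had no call in any PFL library. An intergenic region 1221 kb from Pabpc4l, a gene for a poly(A)-binding protein, had folds between 19.7 and 20.7 in the 4 libraries, a mean of 20.1 ± 0.43 (SD, n = 4). A region 847 kb from Basp1, which encodes a membrane protein of growing axons, reached 19.2 and 19.2 in wt and 20.1 and 20.4 in 542. The region 46.3 kb from Olig3, a basic helix-loop-helix factor of neural progenitors, reached 20.1 and 19.3 in wt and 19.2 and 19.8 in 542. Wt and 542 libraries overlapped at Olig3, and the 542 libraries were higher at Basp1.

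The next FB-specific regions lay near Lnpk, which flanks the HoxD cluster (19.3 ± 1.399), Pcdh7 (19.1 ± 1.33) and Pcdh20 (18.7 ± 0.96), both protocadherin genes, Abcc12 (18.6 ± 1.51) and Rgmb, a co-receptor for bone morphogenetic proteins (18.5 ± 1.56, mean fold ± SD, n = 4). All 8 were intergenic, at 46.3 to 1221 kb from a start, and 0 of the 4 PFL libraries had any call there in the whole deposited lists. None of the 8 was among the strongest regions of any of the 4 distal forelimb libraries. The Lnpk region (chr2:74426476-74427477) was 151 kb from the start of that gene.

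Across each class, 7521 of the 10666 PFL-specific regions (70.5%) had no call in any FB library even in the whole deposited lists, and 8233 of the 11871 FB-specific regions (69.4%) had none in any PFL library. A weak call in all 4 libraries of the other tissue was found for 534 PFL-specific (5.01%) and 303 FB-specific regions (2.55%). The FB libraries were estimated from fold and p-value to hold 51.4 to 70.7 M (mega) tags and the PFL libraries 37.5 to 52.7 M tags, and the part of this gap in the weak calls was not tested.

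The distal forelimb (DFL), the future hand plate, shared most limb regions. Of the PFL-specific regions 5428 (50.9%) were among the strongest regions of all 4 DFL libraries and 2046 (19.2%) of none. Of the FB-specific regions 9793 (82.5%) were in no DFL library and 441 (3.71%) in all 4. The shared regions were in all 4 DFL libraries in 18695 cases (92.6%). All of the 8 strongest PFL-specific regions, and none of the 8 strongest FB-specific ones, were in all 4 DFL libraries.

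Some genes were the nearest gene of many tissue-specific regions, and several of these collected regions of both tissues. Of 19417 protein-coding genes, 4386 (22.6%) were nearest to a PFL-specific region, 4428 (22.8%) to an FB-specific region and 2488 to both. At least 10 PFL-specific regions were counted for 97 genes, at least 10 FB-specific regions for 172 genes and both for 32. Robo1, the receptor for Slit guidance cues, led both tissues with 28 PFL-specific and 31 FB-specific regions. Its strongest PFL-specific region (chr16:73343573-73344708), 681 kb from the start, had folds of 11.9 and 11.2 in wt and 12.0 and 9.25 in 542. Its strongest FB-specific region (chr16:71997700-71998415), 665 kb from the start, had folds of 19.5 and 18.9 in wt and 15.7 and 13.8 in 542. These regions lie on either side of that start, and neither had a call in the other tissue.

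The 7 genes that followed Robo1 in PFL were Cdh11, a cadherin of mesenchyme (22 PFL-specific and 12 FB-specific regions), Flrt2 (22 and 22), the teneurin Tenm3 (21 and 22), the ephrin receptor Epha7 (19 and 18), the phosphatase receptor Ptprd (19 and 24), the latrophilin Adgrl3 (18 and 22) and Pcdh18 (17 and 12). In FB, besides Ptprd, the genes that followed Robo1 were Tenm2 (2 PFL-specific and 30 FB-specific regions), the zinc finger gene Zfp608 (9 and 28), Nr2f1, a nuclear receptor that patterns the cortex (4 and 25), Olfm4 (11 and 24), Pcdh9 (13 and 23) and Tenm4 (7 and 23). The strongest FB-specific region assigned to Nr2f1 lay 1188 kb from its start and had a fold of 15.3 ± 1.19 (SD, n = 4). Tenm3 collected PFL-specific regions up to 2056 kb away, so the assignment by nearest start is a label of position only.

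Genes that pattern the limb mesenchyme had many PFL-specific regions. Of 24 measured genes of this list 22 (91.7%) were nearest to a PFL-specific region and 15 (62.5%) to an FB-specific region, with 88 and 44 regions, against 22.6% and 22.8% over all genes. Osr1, a zinc finger factor of connective tissue, had 13 PFL-specific and 0 FB-specific regions, and the strongest of them (chr12:9368127-9369310, 206 kb from the start) had folds of 11.1 and 12.0 in wt and 12.3 and 9.73 in 542. Hand2, which sets up the posterior limb, had 10 and 0, with a strongest mean fold of 10.5 ± 0.89 (SD, n = 4). Pkdcc, a secreted kinase needed for limb growth, and Gli3, the Hedgehog effector, had 8 PFL-specific and 8 FB-specific regions each.

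Proximal limb factors leaned to the forebrain in the number of regions. Of 14 genes 8 (57.1%) had a PFL-specific and 5 (35.7%) an FB-specific region, with 29 and 38 regions in all. The TALE homeodomain genes Meis1 (6 and 10) and Pbx3 (0 and 5) carried more FB-specific regions, whereas Rarb, a retinoic acid receptor, had 8 and 6. Meis1 had its strongest FB-specific region 55.4 kb from the start, with a fold of 14.1 ± 0.96, and its strongest PFL-specific region at 406 kb, with a fold of 8.88 ± 0.97 (SD, n = 4 each). Among the 7 measured genes of the hand plate, Hoxa13 and Evx2 had 1 PFL-specific region each and no FB-specific one, and Sall1 (3 and 3) and Sall3 (1 and 5), zinc finger genes, had regions of both kinds.

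Lists for the differentiating tissues of the limb had PFL-specific regions at most genes. For cartilage and bone, 15 of 22 genes (68.2%) had a PFL-specific and 7 (31.8%) an FB-specific region. Sox9, the regulator of chondrogenesis, had 9 PFL-specific and 14 FB-specific regions. Its strongest PFL-specific region, 820 kb from the start, had folds of 9.28 and 11.8 in wt and 10.5 and 10.5 in 542, and its strongest FB-specific region (chr11:112501694-112502393), at 280 kb, had folds of 17.5 and 16.4 in wt and 19.6 and 17.01 in 542. Its partners Sox5 (7 and 14) and Sox6 (8 and 4) and the matrix gene Hapln1 (5 and 6) also had both kinds.

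For tendon and connective tissue, 9 of 11 genes (81.8%) had a PFL-specific and 2 (18.2%) an FB-specific region. The collagen genes Col3a1 and Col1a2 had 7 and 4 PFL-specific regions and the tendon factor Mkx had 4, all with 0 FB-specific regions, while Tcf7l2, a Wnt effector, had 4 and 8. The strongest Col3a1 region had folds of 12.6 and 14.3 in wt and 15.4 and 10.9 in 542. Skeletal muscle, a second cell lineage of the limb, had PFL-specific regions at 11 of 15 genes (73.3%) and FB-specific regions at 4 (26.7%). They were led by Eya1 (9 PFL-specific and 4 FB-specific regions), Pax3 (5 and 3) and Pax7 (1 and 2), which mark muscle precursors, and by Myf6 (2 and 0), a myogenic factor.

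The forebrain lists had the opposite order. FB-specific regions were found at 17 of 20 genes of the pallium (85%), 17 of 21 of the subpallium (81.0%), 17 of 20 of neural progenitors (85%) and 18 of 20 of neurons (90%), and PFL-specific regions at 40%, 47.6%, 45% and 60% of them. Sox2, which maintains neural progenitors, had 3 PFL-specific and 18 FB-specific regions. The strongest Sox2 region (chr3:34411258-34412187), 239 kb from the start, had folds of 18.3 and 15.4 in wt and 18.2 and 19.5 in 542. The POU genes Pou3f2 (0 and 12) and Pou3f3 (8 and 11) and the growth factor gene Ptn (5 and 9) followed.

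In the pallium list, the nuclear factor I genes Nfib (10 and 16) and Nfia (3 and 10), Sox11 (8 and 12) and Bcl11a (11 and 7) had the most regions, and Bcl11a was the gene with more PFL-specific than FB-specific ones. In the subpallium list, Zfhx3 (10 and 10) and the LIM homeodomain gene Isl1 (8 and 8) were balanced, while Ebf1 (4 and 12) and Sp8 (1 and 8) had more FB-specific regions. The strongest FB-specific region of Isl1 had a fold of 16.6 ± 0.72 and its strongest PFL-specific region 11.8 ± 1.54 (SD, n = 4 each). Among neuronal genes, the RNA-binding factor Celf4 (6 and 21), the synaptic adhesion gene Nrxn3 (6 and 19) and the microtubule gene Map2 (3 and 7) led.

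Genes of the Wnt, Fgf, Bmp and Hedgehog pathways had regions of both kinds, with a PFL-specific region at 23 of 30 genes (76.7%) and an FB-specific region at 20 (66.7%). Bmpr1b, a Bmp receptor, had 12 PFL-specific and 8 FB-specific regions, and Spry2, a feedback inhibitor of Fgf signalling, had 6 and 5. Sfrp2, a secreted Wnt modulator, had 11 PFL-specific and 0 FB-specific regions, the strongest with folds of 11.6 and 10.6 in wt and 11.9 and 10.5 in 542. Fzd1, a Wnt receptor, had 3 and 7.

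**Figure D3:**
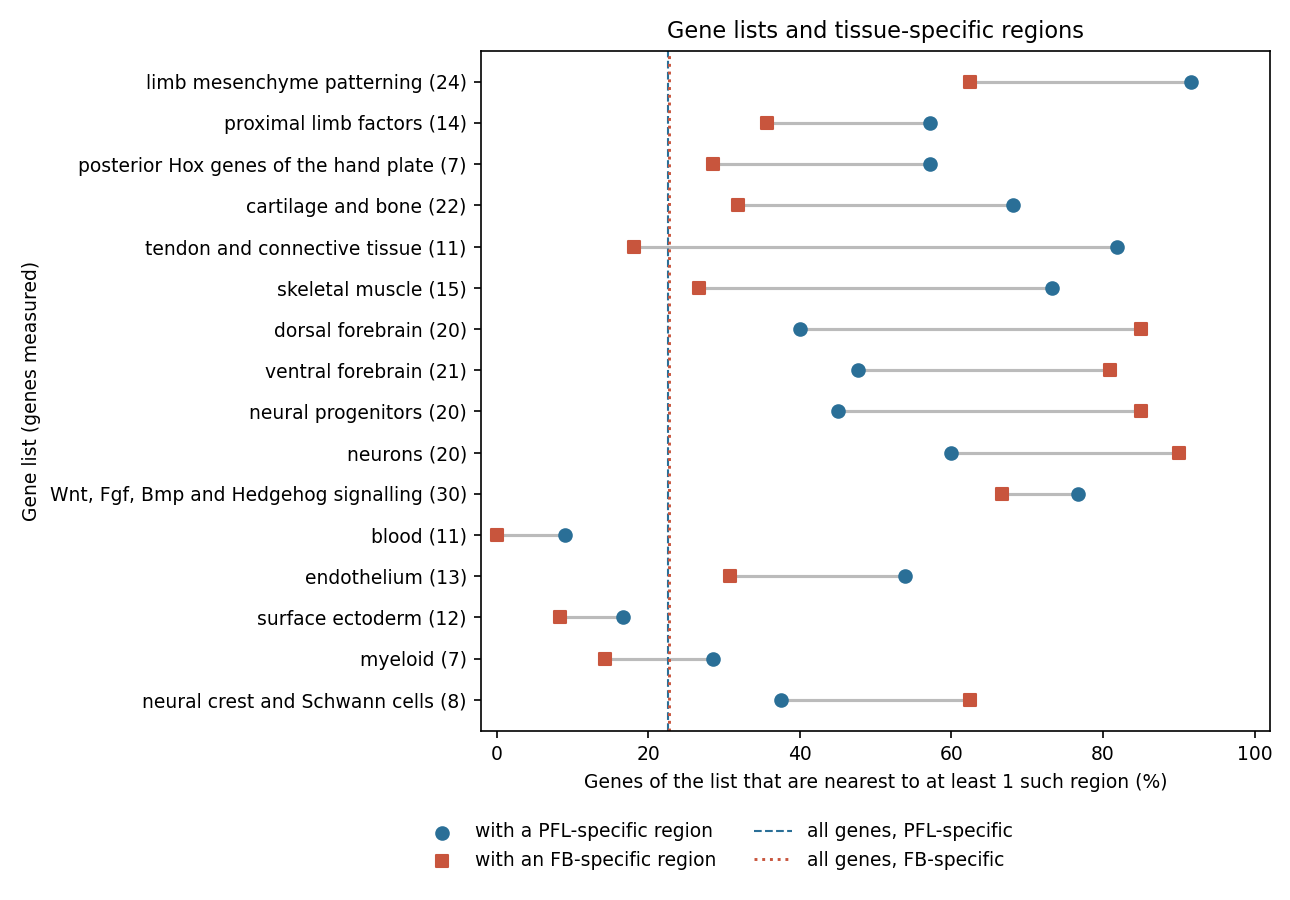
Percent of the measured genes of each of 16 gene lists (number measured in brackets) that are the nearest protein-coding gene of at least 1 PFL-specific region (blue circles) or FB-specific region (red squares), with vertical lines for all genes. Limb lists lie further right for PFL-specific regions (57.1% to 91.7%), forebrain lists for FB-specific regions (81.0% to 90%), and all genes stand at 22.6% and 22.8%.

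Markers of other cell types that dissected tissue could hold were checked in the same way. Endothelium had a PFL-specific region at 7 of 13 genes (53.8%) and an FB-specific region at 4 (30.8%), against 22.6% and 22.8% over all genes. Its regions numbered 27 and 8. These regions included those near Cdh5 (8 and 3), Erg (6 and 0), Fli1 (5 and 0) and Emcn (1 and 3). However, Cdh5, Fli1 and Emcn had no promoter region among the strongest of any of the 8 libraries. Kdr, Erg and Egfl7 had one in all 8. Flt1 and Tek had one in 4 PFL libraries and in 2 and 0 FB libraries. Blood had 1 PFL-specific region over 11 genes, surface ectoderm 3 PFL-specific and 3 FB-specific regions over 12 genes, led by Trp63 (2 and 3) and Perp (1 and 0), and myeloid cells 12 and 6 regions over 7 genes, of which 11 and 6 were near Ptprc. Neural crest and Schwann cells had 6 and 9 regions over 8 genes, with Mitf (2 and 4), Foxd3 (2 and 2), Cdh19 (2 and 1) and Sox10 (0 and 1). The promoter was open in 0 of the 8 libraries for all 7 measured myeloid genes and for 7 of 12 ectodermal genes. The same held for 6 of 13 endothelial, 5 of 11 blood and 2 of 8 neural crest genes, against 6269 of 19417 genes in all. The part of these cells in the classes was not tested.

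Few promoters were specific to a tissue. The promoter was open in 4 PFL and 0 FB libraries for 188 genes (0.968% of 19417) and in 4 FB and 0 PFL libraries for 109 (0.561%), against 11275 genes with a promoter open in all 8 and 6269 open in none. The genes of the lists that met this were named after their values were seen. On the PFL side they were Twist2, Hoxa9, Hoxd8, Hoxd11 and Hoxa13 of limb patterning, Sox6, Col9a1, Col9a2 and Nkx3-2 of cartilage, Col3a1 and Fmod of connective tissue, Myog and Des of muscle, Tek of endothelium and Esrp1 of ectoderm. On the FB side they were the proneural genes Neurog1 and Neurog2, Fezf1, Lhx6, Six3, Sp8 and Hes5, the neuronal genes Stmn2, Elavl3 and Myt1l, and Shh, the Hedgehog ligand.

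Searching the whole deposited lists split these promoters further. Col3a1, Fmod, Hoxa9 and Myog were called in 4 PFL and 0 FB libraries, and Elavl3 and Six3 in 4 FB and 0 PFL libraries. Twist2, Col9a2, Nkx3-2, Des and Tek had a weak call in all 4 FB libraries, and Fezf1 in all 4 PFL libraries. The promoters of Hoxd11 and Hoxa13 were called in 1 FB library, and that of Hoxd8 in 3.

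Motif content separated the tissues. In windows of 200 bp around the summit and outside promoters, the homeodomain core TAATTA, searched on both strands as every motif here, was found in 26.9% of 11654 FB-specific and 4.80% of 10401 PFL-specific regions, against 9.67% of the windows of all consensus regions. The longer form CTAATTAG, which contains TAATTA and is known from LHX factors, was in 3.16% and 0.18% (0.92% of all), and the POU octamer ATGCAAAT in 7.83% and 0.73% (2.52% of all). The SOX motif ACAATG was in 18.5% of FB-specific and 8.33% of PFL-specific regions (11.0% of all) and ACAAAG, shared by SOX2 and TCF factors, in 25.5% and 15.01% (17.2% of all). FB-specific regions also more often held AGATAA of GATA factors (11.5% against 3.84%, 7.01% of all) and TGACAG of MEIS factors (22.1% against 15.3%, 16.7% of all).

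PFL-specific regions more often held the motif TTTATNG of posterior HOX factors, in 18.1% against 7.47% of FB-specific regions (9.88% of all), and CATTCCA of TEAD factors, in 9.22% against 3.61% (5.25% of all). The T-box motif AGGTGTGA was in 1.59% of PFL-specific against 0.72% of FB-specific regions (0.91% of all), CATATG, an E-box of TWIST type, in 8.40% against 5.10% (5.08% of all), and TGTGGT of RUNX factors in 18.7% against 11.8% (14.2% of all). CAGATG, an E-box bound by proneural factors, was in 30.6% of PFL-specific and 21.8% of FB-specific regions (21.5% of all), so an E-box named for neural factors was more frequent on the limb side. The AP-1 motif TGANTCA was in 7.13% and 6.95%, and TGATTNAT of HOX and PBX dimers in 4.29% and 4.13%. The median GC content was 46.5% in both tissue-specific classes, 52.0% in shared regions outside promoters and 67.0% in shared promoters. In windows under 45% GC the homeodomain core was in 6.98% of PFL-specific and 37.6% of FB-specific regions, and in the others in 3.42% and 19.6%.

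The motifs were also counted in all strong regions of each library outside promoters, a test added after the class shares were seen. These are the lists that chose the classes, and they contain the tissue-specific regions. The counts and their p-values are therefore not independent of the class shares. TAATTA was in 4.56% and 4.58% of the regions of the wt PFL libraries, in 4.16% and 4.17% of 542 PFL, in 15.3% and 15.3% of wt FB and in 16.1% and 15.8% of 542 FB. TTTATNG was in 12.8% and 12.6% of wt PFL, 12.8% and 12.95% of 542 PFL, 7.20% and 7.42% of wt FB and 7.22% and 7.19% of 542 FB. No library of a tissue reached those of the other for either motif. ATGCAAAT was in 0.931% ± 0.040 of PFL and 4.21% ± 0.081 of FB regions, and CATTCCA in 6.97% ± 0.115 and 3.81% ± 0.051 (SD, n = 4 libraries). Of 25 motifs, 8 were higher in every PFL library, 10 were higher in every FB library and 7 overlapped. Each of the 18 had an exact permutation p = 0.0286, the smallest possible with 4 against 4, and a value of 0.0397 after Benjamini-Hochberg adjustment over the 25. TGANTCA was in 6.50% ± 0.19 of PFL and 6.46% ± 0.13 of FB regions (n = 4 each, exact permutation p = 0.714), and the median GC content of the libraries was 48.0% to 48.5%.

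**Figure D4:**
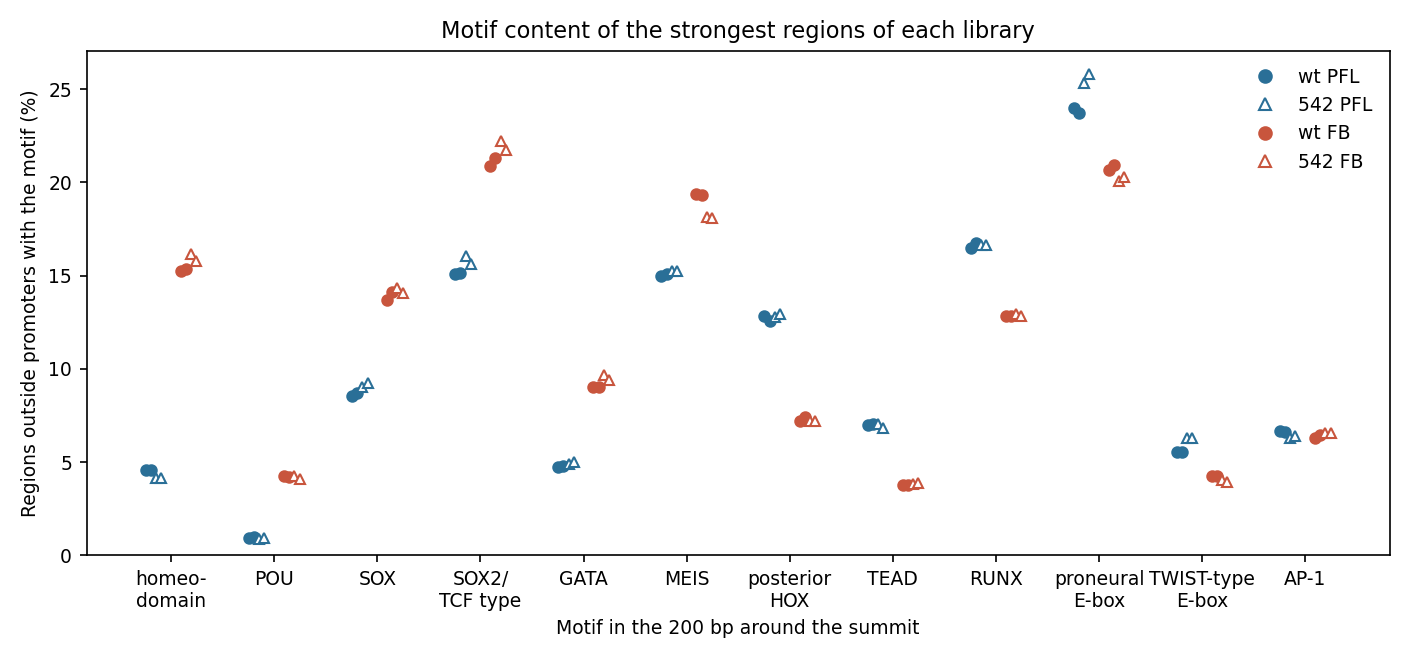
Percent of the strongest regions outside promoters (vertical axis) that hold each of 12 motifs (horizontal axis) in the 200 bp around the summit, 1 point per library, circles for wt and triangles for 542. PFL and FB points are apart for homeodomain (4.37% and 15.6% on average), POU, SOX, GATA, posterior HOX and TEAD motifs and overlap for AP-1 (6.50% and 6.46%).

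Many shared regions differed in strength. Among the 20196 shared regions, limma on the log2 fold, centred per library on the median over these regions and with genotype as a covariate, called 3681 (18.2%) higher in PFL and 2427 (12.0%) higher in FB at an adjusted p under 0.05, 6108 (30.2%) in all. By more than 1 on the log2 scale, 178 regions were higher in PFL and 99 higher in FB, and 0 differed by more than 2. A shared region had to be among the strongest of all 8 libraries, which limited the size of these differences in advance. Regions much weaker in a tissue could fall below the limit of its lists. At promoters 2149 of 10730 regions were higher in PFL and 600 in FB, and outside promoters 1532 of 9466 were higher in PFL and 1827 in FB. The median log2 fold of the shared regions was 3.33 ± 0.06 in PFL and 3.55 ± 0.04 in FB (SD, n = 4), a shift of -0.22 that centring removed. Over the whole lists the median fold was 6.64 ± 0.32 in PFL and 7.53 ± 0.21 in FB (SD, n = 4, exact permutation p = 0.0286), and the part of the unequal tag numbers in this was not tested. Without centring, 1115 were higher in PFL and 7677 in FB, and with quantile normalisation 2757 and 2741, so the balance of directions rests on the scaling.

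**Figure D5:**
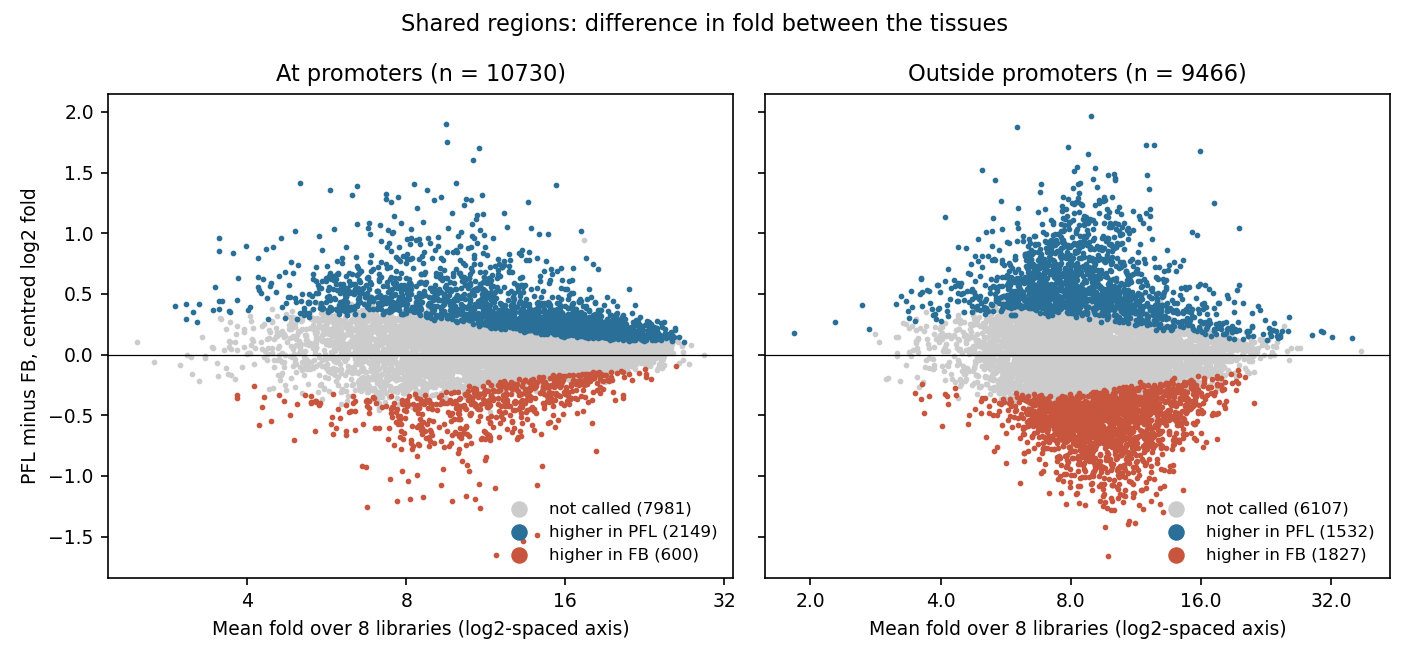
Difference in centred log2 fold between PFL and FB (vertical axis, positive is higher in PFL) against the mean fold over 8 libraries (horizontal axis, log2-spaced) for shared regions at promoters (left, n = 10730) and outside them (right, n = 9466), 1 point per region. Colours mark regions called by limma (2149 and 1532 higher in PFL, 600 and 1827 higher in FB), and no region differs by more than 2. Without centring the balance turns to FB at promoters (423 and 3823 calls) and moves further to FB outside them (692 and 3854).

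The largest differences towards the limb were in a region within an intron 110 kb from Col4a4, a basement membrane collagen gene, with folds of 14.1 and 13.2 in wt PFL, 15.2 and 12.4 in 542 PFL, 4.70 and 3.74 in wt FB and 3.67 and 4.23 in 542 FB. The groups did not overlap, and the difference was 1.97 on the centred log2 scale (SE 0.12, limma adjusted p = 1.16e-06). The promoter of Edar, a receptor of skin appendage development, followed with 14.5 ± 1.27 in PFL and 4.52 ± 0.47 in FB (1.90, SE 0.11, limma adjusted p = 1.16e-06). The promoter of Neurod4, a proneural gene, was also higher in PFL, with 14.2 ± 1.499 against 4.91 ± 0.79 (1.75, limma adjusted p = 7.46e-06). Regions near Gm11361 (1.87) and in an intron 85.9 kb from Vegfc, a lymphatic growth factor gene (1.73), completed the 5.

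Towards the forebrain, the region 10.9 kb from Pih1d3 had folds of 4.34 and 4.14 in wt PFL, 4.31 and 3.88 in 542 PFL, 15.4 and 14.97 in wt FB and 14.3 and 16.6 in 542 FB (difference -1.66, SE 0.11, limma adjusted p = 1.58e-06). The promoter of Rufy3, a gene of neuronal polarity, had 5.10 ± 0.57 in PFL and 18.6 ± 0.54 in FB (-1.65), and that of Wdr35, a cilium transport gene, 6.74 ± 1.45 and 21.5 ± 0.80 (-1.49). The protocadherin promoter Pcdhac1 (-1.54) and a region near Gm4340 (-1.42) completed the 5. These 10 regions kept their call and direction in all 150 alternative values that could be computed. An alternative gave a value only where the region was still among its shared regions, so some combinations gave none.

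The 5 shared regions with the highest fold in both tissues barely differed. The strongest, in an intron 48.5 kb from Chl1, had folds of 34.6 and 37.5 in wt PFL, 33.7 and 34.7 in 542 PFL, 39.5 and 41.1 in wt FB and 40.3 and 39.1 in 542 FB, a centred difference of 0.03 (limma adjusted p = 0.645) that turned to -0.19 without centring. Those near Gm15319, Filip1l, Txndc11 and Mc2r were called higher in PFL by 0.14 to 0.20 on the centred scale, and each turned negative without centring (differences of -0.02 to -0.08).

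Among shared regions near the listed genes, the direction of the calls depended on the scaling for most lists, as it did over all shared regions (18.2% higher in PFL and 12.0% in FB with centring). Of 55 regions near genes of neural progenitors 19 were higher in PFL and 7 in FB (median difference 0.16, against 0.05 over all shared regions), and of 47 near genes of limb mesenchyme 11 and 5 (median -0.04). Without centring these became 8 and 11, and 7 and 19. For neuronal genes 20 of 80 were higher in PFL and 14 in FB (12 and 29 without centring), for the pallium 10 and 6 of 47 (2 and 18), for the subpallium 11 and 4 of 35 (3 and 14), for cartilage 12 and 7 of 40 (4 and 17) and for signalling genes 12 and 6 of 85 (5 and 30). Tendon genes had 6 and 5 of 17 (3 and 5 without centring), proximal factors 4 and 4 of 16 (1 and 5), muscle 0 and 2 of 13 (0 and 3) and the hand plate 0 and 1 of 4 (0 and 1). Of the other cell types, endothelium had 2 and 3 of 13 (1 and 7 without centring), myeloid cells 2 and 1 of 9 (0 and 1), neural crest 1 and 1 of 8 (1 and 4), blood 1 and 0 of 6 (0 and 0) and ectoderm 0 and 0 of 7 (0 and 2).

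In these lists, 14 regions differed by more than 1 on the centred log2 scale. Over all 20196 shared regions, 178 called higher in PFL and 99 called higher in FB did so. All 14 kept their direction and their call without centring and with quantile normalisation, and they were named after their values were seen. The promoter of Twist1 had folds of 10.3 and 8.80 in wt PFL, 10.4 and 10.9 in 542 PFL, 5.05 and 5.14 in wt FB and 4.77 and 4.57 in 542 FB (difference 1.26, limma adjusted p = 2.31e-05). The promoter of Fgfr2, an Fgf receptor, had 12.0 ± 1.42 in PFL and 5.48 ± 0.90 in FB (1.36), that of Notch1 8.68 ± 1.07 and 4.87 ± 0.20 (1.04), and that of Gad2, which makes the transmitter GABA, 8.61 ± 0.79 and 4.02 ± 0.32 (1.32). Regions near Celf4 (1.68), Sp8 (1.27), Etv4 (1.26), Isl1 (1.14), Acan (1.13), Dpysl3 (1.12), Syt1 (1.11) and Egr1 (1.05) were higher in PFL as well, and regions near Tcf7l2 (-1.16) and Map2 (-1.02) were higher in FB.

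The genotypes served as a check on the classes. Of 16500 regions in both wt PFL and no wt FB library, 10666 (64.6%) were the same way in the 542 libraries and 20 the opposite way, and of 16864 regions specific to wt FB, 11871 (70.4%) and 23. Of the regions specific to wt PFL, 78.7% and 76.0% were among the strongest regions of the 542 PFL libraries and 2.97% and 3.49% among those of the 542 FB libraries, whereas 49.3% to 49.9% of all consensus regions were in each 542 library. Of the regions specific to wt FB, 85.0% and 83.6% were in the 542 FB libraries and 4.87% and 5.79% in the 542 PFL libraries.

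For strength, 1916 shared regions were called higher in PFL from the wt libraries alone and 1453 higher in FB. Of these, 95.2% and 94.2% had the same sign in the 542 libraries, against 74.3% of all shared regions. The 542 libraries alone called 763 and 540 of them the same way. The test of a tissue by genotype interaction called 0 of 20196 shared regions (limma, smallest adjusted p = 0.235), with 1611 regions (7.98%) at an unadjusted p under 0.05. The 542 PFL libraries were estimated at 37.5 and 37.9 M tags and the wt PFL libraries at 48.8 and 52.7 M tags, and the part of this gap in the lower share of PFL-specific regions found in both genotypes was not tested.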

How the data were processed

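ATAC-seq peak lists of 8 libraries were used, with 4 distal forelimb libraries as a comparison. The reanalysed wt distal forelimb library was not used. The authors trimmed the reads with cutadapt, mapped them with Bowtie to mm10 (wt) or to a genome carrying the insertion (542), kept high-quality pairs, removed duplicates with Picard and called peaks in each library with MACS2, counting Tn5 cut sites extended to 200 bp. The deposited lists give per summit a score, a fold (ratio of pileup to local background, with a pseudocount added to each) and −log10 p and q values. They hold no counts, so tags per library were estimated from fold and −log10 p.

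Rows of the same region were reduced to unique regions (strongest summit), and the 50000 highest by −log10 q, then fold, were kept on chromosomes 1 to 19, on chromosome 2 below 75 Mb. Regions overlapping by at least 1 bp were merged across the 8 libraries. Nearest protein-coding starts came from GENCODE M21, and a promoter was a summit within 1000 bp. Folds of shared regions were log2-transformed with no further pseudocount (all folds exceed 1) and centred on each library's median. They were tested with limma 3.58.1 in R 4.3.3 (trend, tissue and genotype, Benjamini-Hochberg adjusted p under 0.05). Single values per library were compared by two-sided exact permutation. Scripts used Python 3.11.15 with numpy 2.4.6, pandas 2.3.3 and scipy 1.17.1, and both the merging and the limma step were tested on simulated data.

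Regions were named by rule: the 8 strongest specific regions per tissue, the 8 genes with most of them, the 5 largest called differences per direction, the 5 strongest shared regions, and up to 4 genes per list. Members and gene lists were chosen with earlier results of these data known. Some items that the naming rule would include are not reported here. List genes on X, or on chromosome 2 from 75 Mb, were not measured. The alternatives tried were list length, least overlap, promoter width, ranking, the set of starts, scaling, covariates, a replicate block and leaving out each library.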

Additional observations from a re-analysis of the deposited data

Results flagged for a closer look

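Among 114 sets of 4 libraries of a tissue, 5 had a library far from the other 3, where the gap to the nearest library divided by the range exceeded Dixon's critical value. Chance alone gives about 1 such set in 20. At the shared region near Gm4340 the fold was 4.50 in 542 PFL replicate 1 and 4.71 to 4.75 in the others. In wt FB replicate 2 the posterior HOX motif TTTATNG was in 7.42% of regions against 7.19% to 7.22% in the other FB libraries, the T-box motif in 0.648% against 0.690% to 0.697%, and the NRF1 motif in 0.0873% against 0.0925% to 0.0930%. The GLI motif was in 0.287% of regions of 542 PFL replicate 1 and in 0.227% to 0.235% of those of the other PFL libraries.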

How the results depend on the processing

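The number of tags, estimated and unequal, and presence in ranked lists limit these results: a region missing from a list may be open and weaker. With all deposited regions the PFL-specific, FB-specific and shared-strength counts (higher in PFL, higher in FB) became 18875, 20527, 6406 and 4020, and with the 20000 strongest 2926, 3441, 1400 and 1054, with 11124 shared regions. Without centring the calls were 1115 and 7677, with wt libraries alone 1916 and 1453, and with 542 libraries alone 1246 and 911. The share of wt PFL-specific regions found the same way in 542 was 51.8% with all deposited regions, 62.3% with the 20000 strongest, 63.9% ranked by fold alone and 62.2% when absence was required in all deposited regions, and for FB it was 65.0% with all deposited, 68.9% by fold and 71.3% by absence.

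The promoter difference was 0.463 points (exact permutation p = 0.629) with all deposited regions and 0.845 (p = 0.114) with the 20000 strongest. Deviations of same-numbered PFL and FB libraries from their group means had correlations of -0.000741 in wt and -0.0232 in 542. With 2 libraries per group these values cannot show whether same-numbered libraries came from the same embryos or litters. The labels do not tie libraries to litters. With a replicate block the promoter difference was 0.467 (exact p = 0.125, the smallest such pairs allow), and the block gave 3273 and 2265 shared regions higher in PFL and FB. The median distance differed by -5.56 kb (exact p = 0.0286) with all deposited regions.

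Leaving out each library in turn gave promoter differences of 0.409 to 0.544 (exact permutation p = 0.0286 to 0.0571), distance differences of -1.05 to 0.607 kb, turning positive without wt PFL replicate 1 (0.0736) and without wt FB replicate 2 (0.607), and shares found in 542 of 52.8% to 74.6% for PFL and 58.8% to 77.7% for FB. It gave 2769 to 3487 and 1909 to 2470 called shared regions, 10840 to 12328 PFL-specific, 12251 to 13109 FB-specific and 20373 to 20946 shared regions, and Jaccard differences of 0.307 to 0.339 (exact permutation p = 0.0286).

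The Chl1 region turned to -0.19 without centring, -0.0582 with quantile normalisation, -0.0107 with the 20000 strongest and -0.000447 with 542 alone, and lay between -0.00607 (without wt PFL replicate 2) and 0.0757 when a library was left out (-0.0012 without wt FB replicate 1). Without centring Gm15319 turned to -0.0802, Filip1l to -0.0694 (-0.0148 with quantile normalisation), Txndc11 to -0.0349 and Mc2r to -0.0196. The cause was not tested beyond the scalings themselves.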
